A study of Mus musculus with 4 samples.

Results

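The nuclear factor I (NFI) family of transcription factors comprises Nfia, Nfib, Nfic and Nfix, and its 4 genes were the nearest named gene of 33 of the 29121 accessible regions in an assay of transposase-accessible chromatin (ATAC-seq). All rows of the count table that name 1 of the 4 genes were taken, 16 for Nfia, 9 for Nfib, 2 for Nfic and 6 for Nfix, and all 33 had enough tags to be tested. The cells were neural progenitors from the hippocampus of C57BL/6 mice at P0, grown as neurospheres, floating balls of dividing progenitors, for 7 days with FGF-2 and EGF at 20 ng/ml each. The 2 Fgf13cko libraries carried hGFAPCre+, Fgf13 flox/y, so that Cre driven by the human GFAP promoter, active in radial glia, could delete the X-linked gene Fgf13. The 2 control libraries carried hGFAPCre+, Fgf13+/y, so every library carried the Cre transgene and had a single X-linked copy of Fgf13. The Fgf13 protein belongs to the FGF family but stays inside the cell. Cells from 1 mouse went into 2 wells, and nothing in the labels ties the libraries of a group to different mice. The p-values therefore reflect only the spread among these 4 libraries, part of which may be technical.

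NFI proteins bind DNA as dimers at a palindromic site and act as activators or repressors depending on the promoter. In the developing forebrain and hippocampus they move neural progenitors from self-renewal to differentiation: Nfia is known for the onset of gliogenesis, Nfib and Nfix for the differentiation of hippocampal and cortical progenitors and glia, and Nfix also for the quiescence of adult neural stem cells. Nfic is best known outside the brain, for tooth root development.

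The nuclear regions held 2.55 and 2.63 M tags in Fgf13cko 1 and 2, against 2.78 and 3.25 M in control 1 and 2. Mitochondrial regions took 9.54% and 9.19% of all tags in Fgf13cko, against 23.4% and 27.0% in the controls, and the calls on NFI regions had the same counts when these regions were left out before scaling. The 2 Fgf13cko libraries differed from each other by region width. The median log2 ratio of Fgf13cko 1 to Fgf13cko 2 was -0.81 in regions of up to 703 bases and 0.32 in regions over 985 bases. The medians of control 1 over control 2 lay between -0.04 and 0.13 in every width class. This ratio does not say which Fgf13cko library departs. Of the 4 regions of Fgf13, 0 passed the threshold in edgeR, 1 had an unadjusted p under 0.05 and 0 passed in DESeq2, and the labels do not say which part of the gene was floxed. Promoter regions were present for 8 of 9 neural progenitor markers, with Msi1 lacking one, while Gfap and Aqp4 lacked one among the astrocyte markers. Of the 8, Fabp7 and Nes rose, where 2.14% of all promoter sums did, and the median log2 fold change of the 8 was 0.03. The sum over the 8 ranged from 1712 to 1874 in Fgf13cko and from 1483 to 1702 in the controls. Within that sum the mean of Fabp7 was 382 in Fgf13cko and 218 in the controls, and that of Nes 128 and 74.1. Of 6 neuronal markers 4 had a promoter region, with Rbfox3 and Dcx lacking one. Of these 4, 2 rose, where 2.14% of all promoter sums did, and their sum ranged from 472 to 495 in Fgf13cko and from 257 to 275 in the controls. The tested promoters of 4 oligodendrocyte lineage, 3 astrocyte, 1 microglial, 1 endothelial, 2 meningeal fibroblast and 1 ependymal marker genes gave 0 calls. The 1 measured microglial marker promoter had 10.9 to 23.6 counts in Fgf13cko and 26.3 to 38.3 in the controls. The part of these differences in the NFI results was not tested, and in a bulk sample fewer cells with an open region and less opening per cell cannot be told apart.

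NFI start sites were open to differing degrees, and the 2 measured promoter regions did not pass the test. The RefSeq table of promoter windows (250 bases before to 50 after a start, build GRCm38.p6) held 6 windows, 1 for Nfia, 4 for Nfix and 1 for Nfic. The window of Nfia, on chr4:97581693-97581992 on the plus strand, carried a peak in Fgf13cko 1 and control 1 and none in Fgf13cko 2 and control 2. An Nfix window on chr8:84780033-84780332 on the minus strand carried a peak in Fgf13cko 1 and both controls and none in Fgf13cko 2. The Nfic window on chr10:81427124-81427423, on the minus strand, and the other 3 Nfix windows carried a peak in 0 of 4 lists. Peaks over these windows therefore divided the libraries within a group and did not follow genotype. The 3 windows below show the start-site sequence behind these calls, and capitals mark bases inside a peak of every library that had a peak there.
Nfia: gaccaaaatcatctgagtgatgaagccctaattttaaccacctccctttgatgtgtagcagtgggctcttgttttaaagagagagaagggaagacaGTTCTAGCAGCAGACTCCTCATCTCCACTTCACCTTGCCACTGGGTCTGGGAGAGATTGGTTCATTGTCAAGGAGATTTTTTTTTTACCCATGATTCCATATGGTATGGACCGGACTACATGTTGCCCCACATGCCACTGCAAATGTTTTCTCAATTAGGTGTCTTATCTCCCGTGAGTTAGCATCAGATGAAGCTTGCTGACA
Nfix: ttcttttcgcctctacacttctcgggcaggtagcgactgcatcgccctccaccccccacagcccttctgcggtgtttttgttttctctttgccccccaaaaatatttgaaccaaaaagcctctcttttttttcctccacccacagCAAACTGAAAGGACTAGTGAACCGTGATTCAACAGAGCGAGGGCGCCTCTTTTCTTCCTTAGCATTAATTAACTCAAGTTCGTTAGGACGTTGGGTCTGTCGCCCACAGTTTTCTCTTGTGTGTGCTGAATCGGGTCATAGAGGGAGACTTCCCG
Nfic: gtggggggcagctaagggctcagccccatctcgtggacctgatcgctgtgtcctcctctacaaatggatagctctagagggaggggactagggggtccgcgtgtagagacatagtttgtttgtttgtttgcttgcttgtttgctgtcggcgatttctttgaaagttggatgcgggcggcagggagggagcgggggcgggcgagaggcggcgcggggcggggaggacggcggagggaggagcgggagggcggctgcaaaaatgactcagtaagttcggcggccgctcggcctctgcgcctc
The capitals cover 204 bases at Nfia and 155 at Nfix. The window of Nfia holds 44.7% G or C with 2 CpG dinucleotides and that of Nfix 49.3% with 13, whereas the Nfic window, with no peak, holds 63.0% with 24. None of the 6 windows contained the palindromic NFI motif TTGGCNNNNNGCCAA or the shorter motif TTGGCA on either strand. No match says only that these letters are not in these windows. Over all 32851 RefSeq windows, 0.0365% held the palindrome and 14.1% the shorter motif.

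In the count table, which keeps only regions with a peak in all 4 libraries, 2 of the 33 regions overlapped 1 kb on each side of a start site and are called promoter regions here. The Nfib promoter region on chr4:82505652-82508007 (mm10), over a CpG island at the start of the gene, had 405 and 293 normalised counts in Fgf13cko, against 334 and 360 in the controls. The Fgf13cko values lay on both sides of the control values, with a log2 fold change of 0.00 (SE 0.21, adjusted p = 0.994, edgeR's quasi-likelihood test with Benjamini-Hochberg adjustment over all regions). The Nfix promoter region on chr8:84773906-84775050, at an internal start site, had 207 and 163 counts in Fgf13cko and 233 and 229 in the controls. Both Fgf13cko values were lower than both control values, with a log2 fold change of -0.32 (SE 0.19, adjusted p = 0.369). With edgeR, 0 of the 2 promoter regions passed the threshold of 0.05, 0 had an unadjusted p under 0.05, and 0 passed with DESeq2, where 2.18% of all promoter regions were called by edgeR. Without Fgf13cko 1 the Nfix promoter passed, at a log2 fold change of -0.52 and an adjusted p of 0.014, while the adjusted p over all its alternatives ran between 0.00498 and 0.913.

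Distal regions of Nfia and Nfib rose in Fgf13cko and 1 of Nfia fell. Of the 31 distal NFI regions, 6 rose in Fgf13cko, 3 at Nfia and 3 at Nfib, and 1 fell, at Nfia. Among all 17089 distal regions tested, 9.48% rose and 2.24% fell. The median log2 fold change of the 31 was 0.21, against 0.09 over all distal regions, and 20 of 31 were above 0, against 9437 of 17089. Fgf13cko exceeded both controls in 16 of the 31 and lay below both in 6, where 34.7% and 22.4% of all distal regions did so, and the groups overlapped in 9. Most calls were lost with either control left out. Without control 1, 1 NFI region, at Nfia, rose and 0 fell, and without control 2, 0 rose, 0 fell and 7 of the 31 had an unadjusted p under 0.05, where 2.32% and 1.08% of all distal regions rose and 0.375% and 0.176% fell. Without Fgf13cko 1, 8 rose and 2 fell, and without Fgf13cko 2, 9 rose and 5 fell, where 21.5% and 20.2% of all distal regions rose and 7.01% and 20.8% fell. In each such fit the lone library of a group is assumed to vary like the others.

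**Figure D1:**
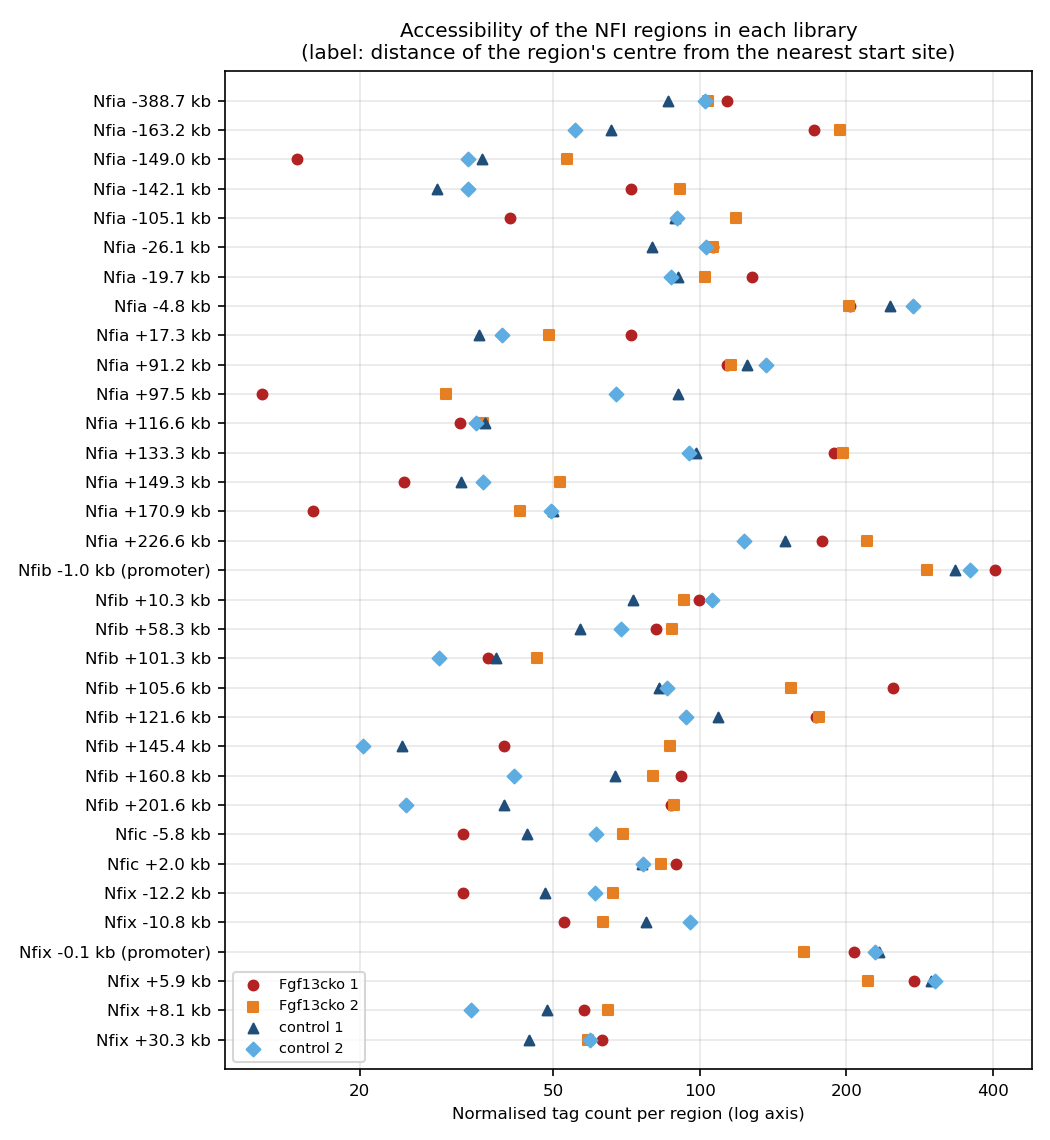
Normalised tag counts (log axis) of the 33 NFI regions in each library, with 1 row per region and red and orange marks for Fgf13cko 1 and 2 and dark and light blue marks for control 1 and 2. The 6 risen regions have both Fgf13cko marks to the right of both control marks, and the Nfia region at +97.5 kb has both to the left.

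Nfia, the gliogenic member, spans chr4:97578066-98118876 on the plus strand and had 16 distal regions and no promoter region in the table. Only 5 genes of the 15091 named in the table had more regions, where the median was 1. Of the 16 regions, 11 lay in introns and 5 in the intergenic DNA upstream. The strongest rise was at chr4:97418253-97419147, intergenic and 163.2 kb upstream of the nearest start, with 171 and 194 counts in Fgf13cko and 65.6 and 55.4 in the controls. Both Fgf13cko libraries lay far above both controls, with a log2 fold change of 1.59 (SE 0.20, adjusted p = 0.0047). It was the only 1 of the 7 called NFI regions that passed without control 1, at 1.71 and an adjusted p of 0.0249. It missed without control 2, at an adjusted p of 0.0644, which was the highest of its 12 alternatives, and the lowest was 5.64e-13.

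Nearer to Nfia, the region 149 kb upstream of the nearest start was not called (log2 fold change -0.02). The next region, at chr4:97439371-97440298 and 142.1 kb upstream, had 72.2 and 91.2 counts in Fgf13cko and 28.9 and 33.4 in the controls. It rose by 1.36 on the log2 scale (SE 0.28, adjusted p = 0.0214) and missed the threshold with DESeq2, at 0.0578 within a range of 5.76e-06 to 0.197. The groups did not overlap. Inside the gene, the intron 2 region at chr4:97910534-97911369 lay 133.3 kb downstream of an internal start. It had 189 and 197 counts in Fgf13cko, against 98.4 and 95.1 in the controls. Its libraries agreed closely within each group, and it rose by 0.995 on the log2 scale (SE 0.18, adjusted p = 0.0149).

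The region of Nfia that fell also lay in intron 2, at chr4:97874870-97875429, 97.5 kb downstream of the same internal start. It had 12.6 and 30.0 counts in Fgf13cko and 90.1 and 67.2 in the controls. Both Fgf13cko values were lower than both controls, with a log2 fold change of -1.88 (SE 0.40, adjusted p = 0.0244). At 560 bases it belongs to the narrow class in which Fgf13cko 1 was, by the median, the lower Fgf13cko library. Without that library the log2 fold change was -1.43 (adjusted p = 9.84e-05), and without Fgf13cko 2 it was -2.63 (adjusted p = 1.15e-09, the lowest of its range, whose highest was 0.239 without control 1). The same intron thus held 1 region that rose and 1 that fell.

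The Nfia region with the most counts, in intron 1 at chr4:97772127-97773560 and 4.8 kb upstream of an internal start, had 203 and 202 counts in Fgf13cko, against 246 and 274 in the controls. Both Fgf13cko values were the lower ones, but the log2 fold change of -0.36 (SE 0.18, adjusted p = 0.279) did not pass. The other 11 Nfia regions were not called, with log2 fold changes between -0.75 and 0.70. The highest per length among the 16 was the intron 4 region 226.6 kb downstream of that internal start, at a mean of 216 normalised counts per kb. It had 178 and 221 counts in Fgf13cko and 150 and 123 in the controls (log2 fold change 0.55, adjusted p = 0.143).

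**Figure D2:**
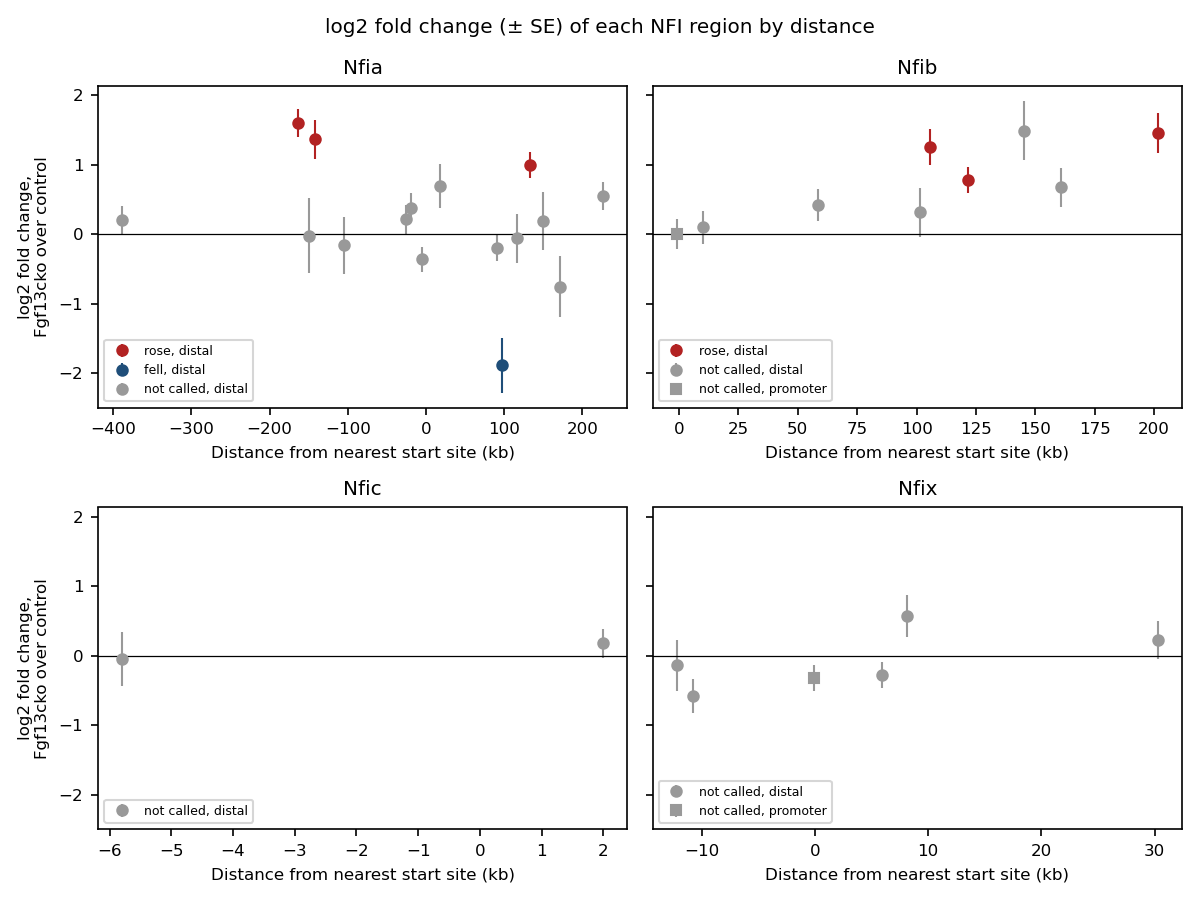
Log2 fold change (Fgf13cko over control) with its SE for each NFI region against its distance in kb from the nearest start site, by gene. Red marks rose, the blue mark fell and grey marks were not called. The 6 risen regions, of Nfia and Nfib, all lie over 100 kb from the nearest start site.

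Nfib, which with Nfia is known for forebrain and hippocampal glial development, spans chr4:82290173-82506751 on the minus strand, and 8 of its 9 regions were intronic and distal. All 8 had log2 fold changes above 0, with a median of 0.73, against 9437 of 17089 and a median of 0.09 over all distal regions. In 6 of the 8 Fgf13cko exceeded both controls, where 34.7% of all distal regions did so. The test called 3 of the 8 risen, where 9.48% of all distal regions rose. The last intron held the strongest called rise, at chr4:82303539-82304738, 201.6 kb downstream of the start, with 87.1 and 88.5 counts in Fgf13cko and 39.7 and 24.9 in the controls. The Fgf13cko libraries nearly coincided and lay above both controls, which differed from each other, and the log2 fold change was 1.45 (SE 0.29, adjusted p = 0.0197).

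A pair of regions in intron 2 rose as well. The first, at chr4:82399638-82400761 and 105.6 kb downstream, had 249 and 154 counts in Fgf13cko, against 82.3 and 85.8 in the controls (log2 fold change 1.26, SE 0.25, adjusted p = 0.0211). Here Fgf13cko 1 was well above Fgf13cko 2, and both exceeded the controls. Without Fgf13cko 1 the log2 fold change was 0.84 and the adjusted p 0.000662, in a range of 1.91e-14 to 0.145 over the alternatives. The second, at chr4:82383470-82384794 and 121.6 kb downstream, had 174 and 176 counts in Fgf13cko and 109 and 93.8 in the controls. It rose by 0.78 (SE 0.19, adjusted p = 0.0408), and missed the threshold with DESeq2, at 0.13 in a range of 0.000276 to 0.51.

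The Nfib region with the highest fitted change did not pass. It lies in intron 3, 145.4 kb downstream of the start, and had 39.5 and 87.0 counts in Fgf13cko, against 24.5 and 20.3 in the controls (log2 fold change 1.49, SE 0.43, adjusted p = 0.0727). The Fgf13cko libraries differed widely from each other there, in a region of 571 bases. The other 4 distal Nfib regions had log2 fold changes of 0.10 to 0.68 and were not called.

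Nfic and Nfix showed 0 called distal regions of 7 with edgeR, with 1 at an unadjusted p under 0.05 and 0 called with DESeq2. With edgeR, 9.48% of all distal regions rose and 2.24% fell, and 0 of 7 is near those shares. Nfic, a short gene on chr10:81396191-81431919, had its better covered region in intron 1 at chr10:81424389-81425866, with 89.4 and 83.3 counts in Fgf13cko and 75.9 and 76.5 in the controls. The groups were close and did not overlap (log2 fold change 0.18, SE 0.21, adjusted p = 0.677). Its other region, 5.8 kb upstream, had 32.7 and 69.6 counts in Fgf13cko and 44.1 and 61.3 in the controls, and the groups overlapped.

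Nfix, the member tied to progenitor differentiation and stem cell quiescence, spans chr8:84704712-84801238 on the minus strand. Its intron 1 region at chr8:84793855-84794941 was the most accessible of the 33 per length, at a mean of 253 normalised counts per kb. It had 275 and 221 counts in Fgf13cko, against 298 and 303 in the controls (log2 fold change -0.28, SE 0.19, adjusted p = 0.445). Both Fgf13cko values were below the controls, and without Fgf13cko 1 the call passed at -0.47 (adjusted p = 0.0164, in a range of 0.00246 to 0.94). The intergenic region 10.8 kb upstream had 52.7 and 63.2 counts in Fgf13cko and 77.4 and 95.5 in the controls, with an unadjusted p of 0.0428 and an adjusted p of 0.2. The other 3 distal Nfix regions had log2 fold changes of -0.14 to 0.57.

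The table assigns a region to its nearest start site, so 10 further regions inside the bodies of the 4 genes carry another gene's name and are not among the 33. The region named for Mir1191b, inside Nfic, is a promoter region, and the others are distal. It had 46.4 and 59.6 counts in Fgf13cko and 90.1 and 93.0 in the controls, and was not called (log2 fold change -0.80, SE 0.24, adjusted p = 0.0811). Of the 10, 1 rose and 2 fell, all distal, where 9.48% of all distal regions rose and 2.24% fell. The riser, in Nfia intron 1 at chr4:97618492-97619362 and named for E130114P18Rik, had 178 and 200 counts in Fgf13cko and 72.5 and 75.2 in the controls (log2 fold change 1.36, SE 0.19, adjusted p = 0.0061). Both fallen regions lay in the last intron of Nfix and were named for Lyl1, a neighbouring gene for a basic helix-loop-helix factor. The first, at chr8:84712285-84712944, had 61.9 and 80.1 counts in Fgf13cko and 148 and 165 in the controls (log2 fold change -1.14, SE 0.21, adjusted p = 0.0159). The second, at chr8:84708851-84709803, had 64.2 and 61.1 counts in Fgf13cko, against 126 and 137 in the controls (log2 fold change -1.07, SE 0.20, adjusted p = 0.0169). With them counted, the distal calls were 7 risen and 3 fallen of 40, or 17.5% and 7.5%, against the same 9.48% and 2.24%. None of the 3 passed without control 1 or without control 2.

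All 6 risen NFI regions lay far from a start site. Of the 16 distal regions over 100 kb from the nearest start, 10 of Nfia and 6 of Nfib, 6 rose and 0 fell, where 11.0% of all 3796 such regions rose and 2.58% fell. Of the 15 within 100 kb, 1 fell and 0 rose, with edgeR and with DESeq2, and 0 had a rise at an unadjusted p under 0.05, where 9.05% of all 13293 such regions rose and 2.14% fell. This division was chosen after the values were seen, and the difference between the classes was not tested. It rests on the nearest start site, which for the Nfia intron 2 regions is an internal one. The fallen region, at 97.5 kb, lies just inside the limit. The risen region in Nfia intron 1 named for E130114P18Rik, 34.3 kb from its nearest start, is not among the 15. Summed per gene within 100 kb, the distal counts of Nfia were 662 and 541 in Fgf13cko, against 679 and 747 in the controls (log2 fold change -0.25, adjusted p = 0.409). Those of Nfib were 188 and 161 in Fgf13cko and 132 and 185 in the controls (0.14, adjusted p = 0.733). The sums of Nfic and Nfix gave -0.02 and -0.27 with adjusted p-values of 0.958 and 0.361. With edgeR, 0 of the 4 sums were called, 0 had an unadjusted p under 0.05 and 0 were called with DESeq2, where 10.6% of all 7675 sums were. With no limit on distance the Nfib sum rose by 0.69 (SE 0.17, adjusted p = 0.0268, in a range of 0.0268 to 0.992 over its alternatives), where 11.8% of all such sums were called, and Nfia stood at 0.12.

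**Figure D3:**
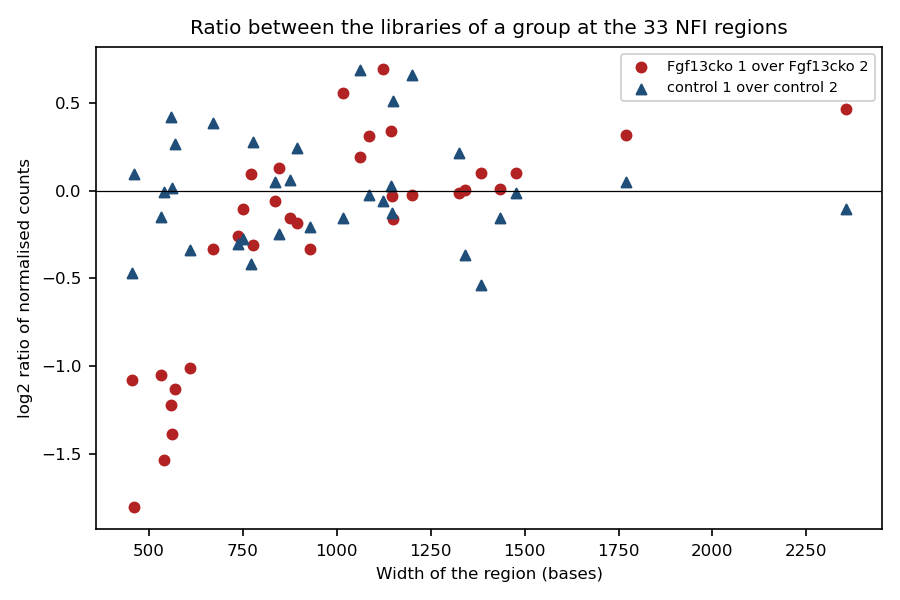
Log2 ratio of Fgf13cko 1 over Fgf13cko 2 (red circles) and of control 1 over control 2 (blue triangles) against width in bases at the 33 NFI regions. All 9 narrow regions have a Fgf13cko ratio between -1.80 and -0.33, where the control ratios lie between -0.47 and 0.42.

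Region width separated the Fgf13cko libraries at the NFI regions as elsewhere in the table. At the 9 NFI regions of up to 703 bases, Fgf13cko 1 was below Fgf13cko 2 in 9 of 9, with a median log2 ratio of -1.13. At the 15 wider than 985 bases the median was 0.10. The control ratios had medians of 0.01 in the narrow and -0.03 in the wide class. The 6 risen regions were 836 to 1325 bases wide, and none was in the narrow class.

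The peak lists, which also hold regions open in some libraries only, gave more peaks around Nfia and Nfib in Fgf13cko. Within 20 kb of the gene bodies, Nfia had 57 and 47 peaks in Fgf13cko, against 26 and 34 in the controls, and Nfib had 23 and 21 in Fgf13cko, against 12 and 15. Nfic had 13 and 10 in Fgf13cko and 9 and 11 in the controls, and Nfix 19 and 15 in Fgf13cko and 17 and 15 in the controls. The groups did not overlap at Nfia and Nfib and overlapped at Nfic and Nfix. The whole lists were longer in Fgf13cko too and likewise did not overlap between the groups, at 64954 and 54373 peaks in Fgf13cko and 38006 and 47148 in the controls.

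Merged across libraries, the 4 loci held 139 peaks, of which 16 were in both Fgf13cko lists only and 3 in both control lists only. Genome-wide, 12.3% of 80077 merged peaks were in both Fgf13cko lists only and 1.77% in both control lists only, so the NFI shares of 11.5% and 2.16% were near the background. Nfia held 9 of the 16, all inside the gene, with the peak caller's own fold enrichment between 2.60 and 4.26. Nfib held 3, all intragenic, Nfic 3 and Nfix 1. Those of Nfib had fold enrichments of 3.10 to 3.43. The 1 at Nfix, outside the gene at chr8:84684446-84684884, had 4.33 to 4.63.

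Genes that act with NFI proteins, upstream of them or as their targets were described from a list of 30. At promoters, 25 were tested, 2 rose and 0 fell, where 2.14% of all 11306 promoter sums rose and 0.601% fell, and the median log2 fold change was 0.01 against -0.01 over all genes. Fabp7, the brain fatty acid binding protein of radial glia whose promoter NFI binds, had 392 and 372 counts in Fgf13cko and 193 and 243 in the controls (log2 fold change 0.80, SE 0.16, adjusted p = 0.0215). Nes, the intermediate filament nestin of progenitors, had 125 and 132 in Fgf13cko and 77.6 and 70.7 in the controls (0.79, SE 0.19, adjusted p = 0.0489). The groups did not overlap in either gene, and Nes missed the threshold with DESeq2 (adjusted p = 0.305). Without control 1 or control 2 neither passed, at adjusted p-values of 0.616 and 0.453 for Fabp7 and 0.607 and 0.606 for Nes, the highest of their ranges being 0.616 and 0.607, and the lowest 1.34e-08 and 0.00521.

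The promoters next in order of p did not pass. Ski, a co-repressor reported to act with NFI, had 95.0 and 153 counts in Fgf13cko and 222 and 229 in the controls (-0.86, adjusted p = 0.0537). It was past the threshold in 7 of 12 alternatives, over a range of 4.27e-09 to 0.616. Olig2, an oligodendrocyte lineage factor, stood at 0.56, the stress-response factor Atf3 at 0.54 and the progenitor factor Pou3f2 at -0.46, with adjusted p-values of 0.0852, 0.0933 and 0.111. Sox9, which induces Nfia in the spinal cord, had 318 and 281 counts in Fgf13cko and 341 and 383 in the controls, and its -0.28 was not called (adjusted p = 0.319). Of the genes that NFI proteins repress, Hes1 stood at 0.27 and Ezh2 at -0.19, neither called.

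**Figure D4:**
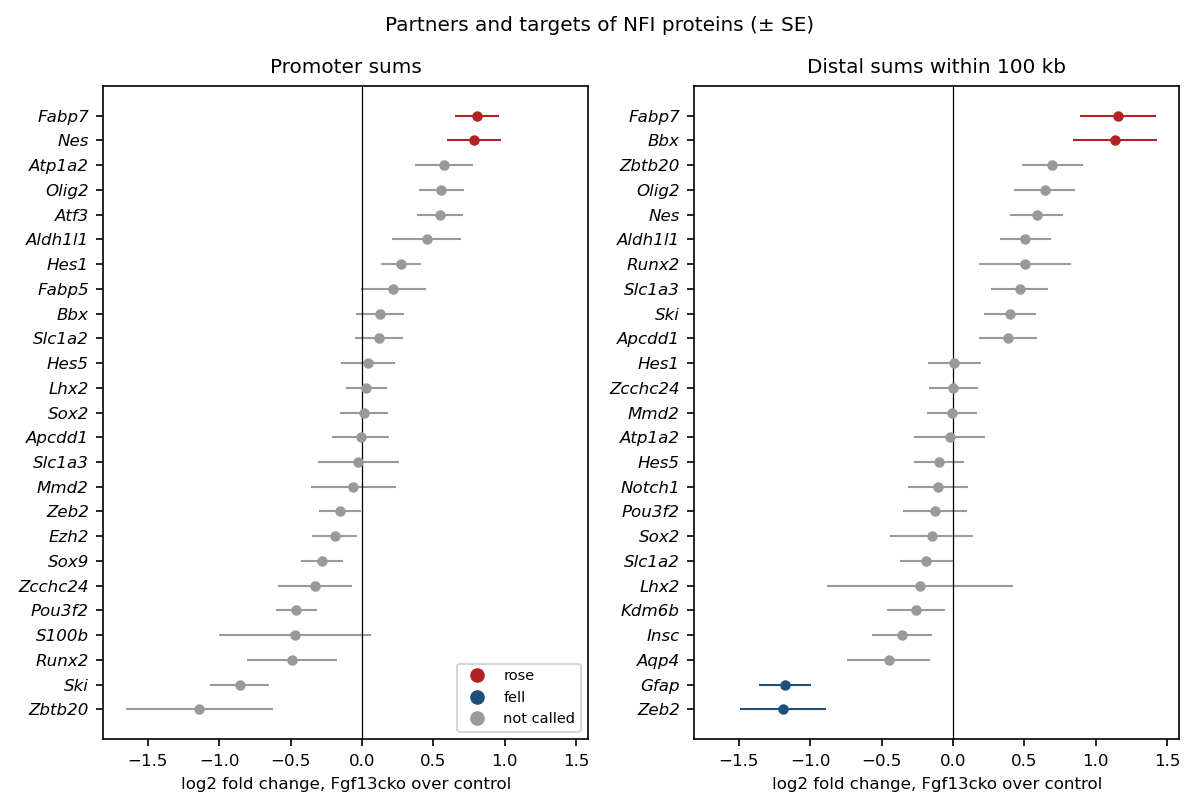
Log2 fold change (Fgf13cko over control) with its SE for the genes of the list, by promoter sum (left) and by distal sum within 100 kb (right), 25 genes in each. Red marks rose, blue marks fell and grey marks were not called; Fabp7 rose in both panels, and Gfap and Zeb2 fell in distal sums.

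In distal sums, 25 genes of the list were tested, 2 rose and 2 fell, where 7.07% of all sums rose and 3.54% fell, and the median was -0.01, as over all genes. Gfap, the astrocyte intermediate filament whose promoter NFI proteins bind, had 132 and 140 counts in Fgf13cko, against 294 and 321 in the controls. It fell by 1.18 on the log2 scale (SE 0.18, adjusted p = 0.00703), and was the only 1 of the 4 called sums past the threshold in every alternative run on it, 13 of 13, with adjusted p-values of up to 0.0438. Zeb2, a zinc finger repressor of neural and glial development, had 34.0 and 35.3 counts in Fgf13cko and 66.8 and 91.5 in the controls (-1.19, SE 0.30, adjusted p = 0.0357).

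Fabp7 rose in distal counts too, with 181 and 129 in Fgf13cko and 82.3 and 57.6 in the controls (1.16, SE 0.26, adjusted p = 0.0254). Bbx, which NFI proteins regulate in the hippocampus, had 91.8 and 68.7 counts in Fgf13cko, against 36.9 and 35.3 in the controls (1.14, SE 0.30, adjusted p = 0.0394). Without control 2, the sums of Zeb2, Fabp7 and Bbx missed the threshold, at adjusted p-values of 0.451, 0.256 and 0.323, each the highest of its range; without control 1, Zeb2 and Bbx missed it, at 0.0969 and 0.273. The lowest of their ranges were 0.000529, 3.87e-10 and 2.94e-05. With DESeq2, Zeb2 and Bbx missed it at 0.0741 and 0.0892, and with library size only Bbx missed it at 0.0554. With no limit on the distance Zeb2 stood at -0.42 and Bbx at 0.45, neither called. The astrocyte factor Zbtb20 at 0.70, Nes at 0.59, Olig2 at 0.64 and Aldh1l1, an astrocyte folate enzyme, at 0.51 did not pass, with adjusted p-values of 0.0664, 0.0721, 0.0840 and 0.0991. Of 13 alternatives, 5 called the sum of Olig2 and 3 that of Aldh1l1, DESeq2 among them at 0.0287 and 0.0433, over ranges of 3.77e-12 to 0.463 and 2.15e-06 to 0.680. The members and this list share the same 4 libraries and 1 comparison.

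Promoters with NFI motif letters were counted as a description. Of 8819 tested promoters with a RefSeq window, 1207 held TTGGCA on either strand, of which 46 (3.81%) rose and 9 (0.746%) fell. Of the 7612 without it, 133 (1.75%) rose and 39 (0.512%) fell. The median G or C content was 58.7% with the motif and 61.7% without, and its part was not tested. The palindrome was in 2 tested promoters, and 1 of them, that of the histamine receptor gene Hrh1, rose (0.93, adjusted p = 0.0114).

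Distal sums within 100 kb were compared by the distance between profiles over the 4 libraries, among 2563 genes. That of Nfia was nearest to Cbr4, Nfix and Fam92b, and that of Nfix to Nfia, Cbr4 and Crip2. The distance between Nfia and Nfix was 0.04 in log2 units, as was that of each to Cbr4. The 3 risen Nfia regions lie beyond this limit. With no limit on distance the log2 fold change was 0.12 for Nfia and -0.28 for Nfix. The Nfib sum was nearest to Ercc4, Cdhr3 and Marcks, and the Nfic sum to Mmd2, C1d and Myo16. Among 5778 promoters, Nfib was nearest to Ube4b, Uchl1 and Fbxo44, and Nfix to Tacc3, Abtb1 and Tlcd1. Each profile has 4 points, and the distances are a description.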

How the data were processed

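ATAC-seq libraries of 2 Fgf13cko and 2 control neurosphere cultures were grouped by their titles. Per the file headers, the authors deposited estimated counts, raw and unnormalised HOMER tag counts over merged broad peaks (mm10), in steps of 0.5. Per the column order of the deposited peak lists, each peak has a fold enrichment (a ratio), a score and −log10 p and q, all the authors' own values, used here only to describe peaks. HOMER, DESeq2, MACS2, Picard and Bowtie2 were used, per the submitters' processing notes, which give no role. Tool versions, any transposase shift and duplicate handling: not given in the sources used here.

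Counts were rounded and tested with edgeR 4.0.16 in R 4.3.3 (glmQLFit, robust; two-sided glmQLFTest) with TMM scaling and filterByExpr, over all regions or all per-gene sums, with Benjamini-Hochberg adjustment and a threshold of 0.05. The code was tested on simulated data. Normalised counts are counts over the relative effective library size. Regions had a common biological coefficient of variation of 0.191. With 2 libraries a group, an exact permutation test of 1 region cannot give a p below 0.333. Distances run from a region's centre to the nearest start site in the table. Gene spans and windows are RefSeq's (GRCm38.p6), and Nfib had no window in that table.

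Values in every library are given for each promoter region, each called distal region and the distal region with the most counts of each gene, with called genes of the list, and up to 4 more by p. Sox9, Hes1, Ezh2, Hrh1, the regions named for other genes and further uncalled regions were named after their values were seen. The members, lists and marker genes were chosen with earlier results of these data known. Likeness is the Euclidean distance between log2 values over the 4 libraries, among genes with a mean of at least 100. Alternatives covered scaling, filters, DESeq2 1.42.0, windows, a replicate block and each library left out.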

Additional observations from a re-analysis of the deposited data

How the results depend on the processing

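The 6 risen and 1 fallen distal NFI regions numbered 4 to 7 and 1 under RLE factors, a loess offset, both other filters, DESeq2, the mitochondrial regions left out and a replicate block. Of all distal regions, 6.37% rose with DESeq2, 8.8% without mitochondrial regions, 9.15% with RLE factors, 9.54% with no filter, 10.5% with the loess offset and 11.0% with the block. Under a minimum mean count of 50, 20.5% rose, and 6 of the 24 NFI regions tested did. The shares that fell lay between 1.46% and 5.52%. With library size only, 22 rose (of all distal regions 52.5%), 0 fell and 2 promoter regions were called, and 17704 of all regions against 2258. That scaling moved the median of all regions to 0.97, and relative to it the 6 risen regions lay between 0.78 and 1.60. It also reversed Nfix at -0.1 kb to 0.64, Nfia at -4.8 kb to 0.61 and Nfix at +5.9 kb to 0.68, which relative to the moved median were -0.33, -0.36 and -0.29. With each library left out in turn, risen regions ranged between 0 and 9, fallen between 0 and 5, promoter regions between 0 and 1, distal sums between 0 and 2, list promoters between 0 and 9, list distal sums between 1 and 12, and all regions between 224 and 10086. Distal sums called numbered 2 (Nfia and Nfix) with the loess offset and 1 with no distance limit. Fallen regions numbered 0 over 100 kb only and 3 with gene-body regions added, both settings chosen after seeing the data. List promoters called were 1 with DESeq2 and 4 with a window of 2 kb, and list distal sums 2 with no distance limit. The cause was not tested.

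The labels do not say that replicate numbers pair the libraries, and same-numbered deviations correlated at -0.168 over 27142 regions. With the replicate block, 7 distal NFI regions rose and 1 fell, where 11.0% and 3.28% of all distal regions did. It called 0 NFI promoter regions and 0 NFI distal sums, with 3 list promoters, 4 list distal sums and 2808 of all regions.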

Other observations

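Among all distal regions over 100 kb from a start, the share that rose was higher in the wider ones: 21.3% of the 1548 over 800 bases wide rose, against 11.0% of all 3796. Of the 9 NFI regions in that class 6 rose, with a median log2 fold change of 0.995, against 0.39 over all 1548. The width limit was chosen after the values were seen and no test was made. On chromosome 4, which holds Nfia and Nfib, 12.7% of the 291 distal regions over 100 kb rose.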
